A study of Mus musculus with 9 samples.

Results

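The Hox genes were followed in the back skin of BALB/c mice as a code of body position. Members were the rows of the gene table whose name is Hoxa, Hoxb, Hoxc or Hoxd followed by a number and nothing else, and 36 of the 29205 rows were kept (1 further Hox gene was set aside by the selection and is not described here). They comprised 11 Hoxa, 9 Hoxb, 8 Hoxc and 8 Hoxd genes. Back skin came from male mice aged 6 to 8 weeks whose backs had been shaved and treated with depilatory cream, with 3 libraries in each of 3 groups. The control group had no further treatment. The IMQ group received 62.5 mg of cream with 5% imiquimod (IMQ), a Toll-like receptor agonist that gives psoriasis-like skin, every day on 5 days in a row. The LYS group received the same cream and, by mouth, Longkui Yinxiao soup (LYS), a decoction of 5 plants used against psoriasis. The study took the sequenced LYS skin from its high-dose group. All skin was taken on day 13. Total RNA of whole skin was sequenced, so that fewer cells of a type and less RNA per cell cannot be told apart in any value below. The sources used here do not say whether a library holds the skin of a single mouse.

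Hox proteins are homeodomain transcription factors that give cells their address along the body axis. In the mouse they lie in 4 clusters (a to d), and genes with the same number in different clusters are paralogs, that is, copies descended from the same ancestral gene. Low numbers are active toward the head and high numbers toward the tail, and the order of the genes along a cluster follows the order of their expression along the body. In adult skin, fibroblasts of the dermis are known to keep the Hox pattern of the place they came from, and epidermis and follicles express Hox genes as well. The Hox proteins bind DNA together with TALE cofactors (Pbx, Meis and Pknox proteins), and Polycomb and Trithorax complexes hold Hox genes in a silent or active state. Paralog groups 1 to 4 are called anterior here, groups 5 to 8 central, and groups 9 to 13 posterior.

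The promoters of 4 genes that later paragraphs turn on are shown first, since the genes lie in different clusters and moved in opposite directions after IMQ. Hoxd8 and Hoxd9 were lower and Hoxa7 and Hoxa9 higher in the IMQ group. Each sequence runs 5′ to 3′ from 250 bases before to 50 bases after the RefSeq start, in GRCm38.p6, and CG dinucleotides (the site of DNA methylation in mammals) are in capitals. The reference strain is not BALB/c. Hoxd8 is at chr2:74704365-74704664 (plus strand), Hoxd9 at chr2:74697513-74697812 (plus strand), Hoxa7 at chr6:52218524-52218823 (minus strand) and Hoxa9 at chr6:52227321-52227620 (minus strand).
Hoxd8: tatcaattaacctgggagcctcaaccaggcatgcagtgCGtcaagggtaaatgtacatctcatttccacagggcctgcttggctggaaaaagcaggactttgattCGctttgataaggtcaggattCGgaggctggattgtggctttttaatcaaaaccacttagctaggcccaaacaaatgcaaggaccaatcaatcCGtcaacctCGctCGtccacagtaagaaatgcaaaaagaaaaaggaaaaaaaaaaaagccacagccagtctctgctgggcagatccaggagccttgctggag
Hoxd9: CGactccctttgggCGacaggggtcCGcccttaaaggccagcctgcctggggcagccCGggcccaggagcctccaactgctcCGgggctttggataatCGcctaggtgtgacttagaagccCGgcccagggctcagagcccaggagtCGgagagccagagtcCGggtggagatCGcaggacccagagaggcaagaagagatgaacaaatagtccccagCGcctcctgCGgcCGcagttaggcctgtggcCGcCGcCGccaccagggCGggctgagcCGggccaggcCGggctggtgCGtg
Hoxa7: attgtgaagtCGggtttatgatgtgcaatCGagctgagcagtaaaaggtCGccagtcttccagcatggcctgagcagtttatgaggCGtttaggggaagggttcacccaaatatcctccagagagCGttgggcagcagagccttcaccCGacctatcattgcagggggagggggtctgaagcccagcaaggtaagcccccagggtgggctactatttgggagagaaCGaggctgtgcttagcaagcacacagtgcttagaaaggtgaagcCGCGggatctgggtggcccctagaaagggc
Hoxa9: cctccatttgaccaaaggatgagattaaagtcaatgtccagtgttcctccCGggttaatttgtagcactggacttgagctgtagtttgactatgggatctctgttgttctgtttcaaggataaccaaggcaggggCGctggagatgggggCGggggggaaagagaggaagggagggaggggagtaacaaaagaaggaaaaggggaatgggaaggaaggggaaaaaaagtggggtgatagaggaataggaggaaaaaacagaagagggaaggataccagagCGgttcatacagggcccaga

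A RefSeq promoter was found for 21 of the 36 Hox genes. Their median was 14 CG dinucleotides per promoter, against 7 over the 27025 promoters of all genes, and the Hox promoters ranged from 4 to 45. Hoxa9 held 4, Hoxd8 held 6, Hoxa7 held 9 and Hoxd9 held 20, so neither pair that moved together was alike in CG content. The CCAAT box, searched as CCAAT on both strands, was in 13 of the 21 Hox promoters (61.9%) and in 37.9% of all promoters, and among the 4 printed ones only in Hoxd8. TATAAA was in 14.3% of the Hox promoters and 14.2% of all promoters. TGATNNAT, a sequence bound by Hox and Pbx proteins together, was in the promoters of Hoxa2, Hoxb1 and Hoxb8, 14.3% of the Hox promoters against 9.04% of all. Both strands were searched for each, and a match is a description of these letters.

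The libraries held between 14658645 and 19609878 counts. Levels are given as FPKM (reads per kilobase of exon, scaled to the counted reads of the library) divided by the TMM scaling factor of the library, so that they can be compared between genes and between libraries. The floor of a group was set at 3 counts, and a gene was at the floor if none of the libraries exceeded it. Of the 36 Hox genes, 31 were above the floor in control skin. Hoxa11, Hoxa13, Hoxc12, Hoxd11 and Hoxd13, all genes of the tail or limb end of the clusters, were at the floor in all 3 groups, with no more than 2 counts in any library. They were not detectable at this depth.

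In control skin the code was centred on paralog group 8. Hoxd8 was the highest Hox gene, with levels of 15.9, 17.6 and 17.0 in the 3 libraries (16.8 ± 0.82, SD, n = 3). Hoxc8, its paralog in the Hoxc cluster, followed with 15.7, 21.6 and 11.9 (16.4 ± 4.88). The ranges of these genes overlapped each other and lay above the range of every other Hox gene.

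The next 6 genes overlapped their neighbours in the order. Hoxb7 had levels of 6.91, 6.28 and 8.36, and Hoxc6, which is active in the thorax of the embryo, had 6.36, 8.92 and 4.73. Hoxd9 had 6.51, 7.42 and 5.63, and Hoxa7 had 4.99, 5.80 and 6.60. Hoxb6 had 3.91, 4.19 and 6.10, and Hoxb8 had 4.25, 3.63 and 5.21. All of these but Hoxd9 belong to the central class.

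Below them, mean levels in control skin were 3.42 for Hoxa5, 3.25 for Hoxc9, 2.38 for Hoxc4, 2.04 for Hoxc5, 1.98 for Hoxb9, 1.77 for Hoxb4 and 1.51 for Hoxa6. A gap without overlap separated Hoxa6 from the next gene. Hoxa4 (1.03), Hoxa9 (1.01), Hoxc10 (0.946), Hoxa10 (0.864), Hoxd10 (0.845), Hoxb3 (0.774), Hoxb5 (0.590) and Hoxa2 (0.493) then formed a run in which each overlapped the next. Hoxd4 (0.330), Hoxa3 (0.293) and Hoxb2 (0.196) followed after another gap. Hoxc11, Hoxd1, Hoxb1 and Hoxd3 were the lowest genes above the floor, at mean levels of 0.0622, 0.0588, 0.0484 and 0.0302. Expression therefore ran up to paralog group 10 in the Hoxa, Hoxc and Hoxd clusters, and was near or at the floor from group 11 on.

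**Figure D1:**
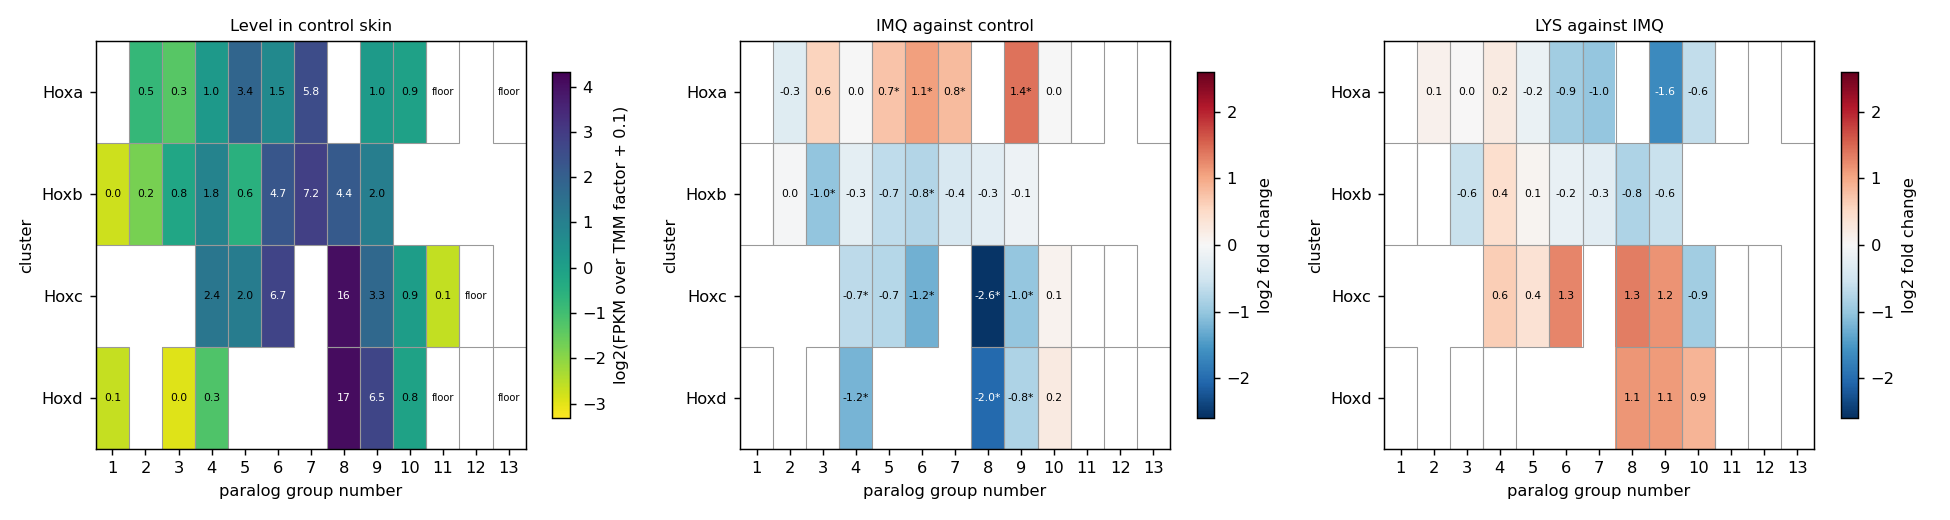
The 4 Hox clusters (rows) by paralog group number (columns). The left panel gives the mean level in control skin (FPKM over the TMM factor, colour on a log2 scale, n = 3 libraries), with genes at the floor marked, and the middle and right panels give log2 fold changes of IMQ against control and of LYS against IMQ, with an asterisk on genes that passed the test and an empty cell for genes not tested. The highest control levels stand in group 8 of Hoxc and Hoxd (16.4 and 16.8), and the asterisks of the middle panel are red only in the Hoxa row.

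Summed over the 36 genes, the Hox level was 85.8, 102.1 and 90.1 in the control libraries. The central class made up 75.1% ± 0.54 of this sum, the posterior class 16.7% ± 1.36 and the anterior class 8.25% ± 0.83 (SD, n = 3). Paralog group 8 alone took 40.5% ± 2.33. By cluster, Hoxc held 34.0% ± 7.17, Hoxd 26.6% ± 0.68, Hoxb 23.6% ± 5.19 and Hoxa 15.8% ± 1.94. The Hoxc share was the most variable between control libraries, from 26.5% to 40.9%.

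Some members share exons with other genes, and the library kit is not stated to keep the strand, so their reads cannot be fully assigned. In the GENCODE M21 annotation Hoxd3 shared 62.8% of its exon bases with other genes, Hoxb3 52.9% (antisense Hoxb3os) and Hoxd4 52.3% (Hoxd3 and others). Hoxa7 shared 20.4% with antisense Hoxaas3. Hoxc8, Hoxc6, Hoxc9, Hoxd8, Hoxd9, Hoxa5, Hoxa6 and Hoxb8 shared none.

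The first comparison asked how the code differed in IMQ-treated skin. Of the Hox genes 27 passed the filter on low counts, and 14 of them passed the test (edgeR's quasi-likelihood test, with a Benjamini-Hochberg p below 0.05 over all genes and a log2 fold change beyond 0.58 in either direction). In the IMQ group 5 were higher and 9 lower. Over all 15976 genes tested 51.0% passed, 24.1% as higher and 26.9% as lower, so the share of Hox genes that passed was close to that of all genes. The median log2 fold change was -0.26 over the Hox genes tested and -0.06 over all genes. Without overlap between the libraries of the groups were 6 Hox genes that were higher and 11 that were lower, where 70.0% of all genes did not overlap.

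Among the genes that passed, the direction went with the cluster. The 5 genes that rose were all Hoxa genes, and no Hoxa gene fell, out of 9 tested. In the other clusters none rose, while 2 of 8 Hoxb genes, 4 of 6 Hoxc genes and 3 of 4 Hoxd genes fell. For Hoxb this share was no larger than the 26.9% of all genes that fell. Among genes that did not pass, 3 Hoxa genes had negative log2 fold changes, and Hoxc10 and Hoxd10 had positive ones. Within a paralog group the calls gave opposite directions. Hoxa6 rose and Hoxb6 and Hoxc6 fell, and Hoxa9 rose and Hoxc9 and Hoxd9 fell.

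The largest falls were in paralog group 8. Hoxc8, at chr15:102990607-102994111, had levels of 3.97, 2.42 and 1.94 in the IMQ libraries, all below its lowest control value of 11.9. Its log2 fold change was -2.56 (SE 0.31, adjusted p 0.000283 in edgeR). Hoxd8, at chr2:74704615-74707933, had 5.78, 3.53 and 3.10 against 15.9 to 17.6, a log2 fold change of -2.02 (SE 0.23, adjusted p 0.000204). Both were called in all 14 alternative settings.

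Hoxc6 came next, with levels of 3.81, 2.10 and 2.49 and a log2 fold change of -1.25 (SE 0.30, edgeR adjusted p 0.00775), also called in all 14. Hoxd4, an anterior gene that shares exons with Hoxd3, went from 0.442, 0.235 and 0.314 to 0.103, 0.126 and 0.199, and its fall of 1.22 on the log2 scale rested on 5 to 8 counts per IMQ library and held in 5 of the 14 settings. Hoxb3 went from 0.864, 0.587 and 0.871 to 0.386, 0.368 and 0.396 (log2 fold change -1.02). None of these 3 genes overlapped between the groups. The other falls had log2 fold changes of -1.02 (Hoxc9), -0.80 (Hoxd9), -0.76 (Hoxb6) and -0.68 (Hoxc4), with edgeR adjusted p between 0.0210 and 0.0300, and the fall of Hoxc4 held in 8 of the 14 settings.

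The rises included a posterior gene and neighbours from the centre of the cluster. Hoxa9, at chr6:52223100-52231089, had 0.615, 1.12 and 1.30 in control and 2.64, 2.71 and 2.76 in IMQ libraries (log2 fold change 1.41, SE 0.27, edgeR adjusted p 0.00253). The 3 IMQ values of Hoxa9 lay close together and above each control value.

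Hoxa6 went from 1.16, 1.80 and 1.56 to 3.40, 3.58 and 2.51, a log2 fold change of 1.06 (SE 0.30, edgeR adjusted p 0.0168). Hoxa7 went from 4.99 to 6.60 in control libraries to 10.7, 8.78 and 11.2 in IMQ libraries (log2 fold change 0.82, SE 0.16, adjusted p 0.00330), which made it the highest Hox gene of IMQ skin. Hoxa5, which lies next to Hoxa6, went from 3.06, 3.20 and 3.996 to 5.63, 6.15 and 5.38 (0.73, SE 0.18, adjusted p 0.00916). None of these genes overlapped between the groups.

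With each library left out in turn, Hoxc8, Hoxd8, Hoxc6, Hoxa5, Hoxa7 and Hoxa9 kept the edgeR call every time. Hoxa6 lost it without control 1 or IMQ 2 (adjusted p 0.0688 and 0.0549). Hoxb3 lost it without control 1 (0.0547), Hoxc9 without control 2 or IMQ 3 (0.0918 and 0.0608), Hoxd9 without control 1, control 2 or IMQ 2 (0.0569 to 0.0726), and Hoxb6 without control 3, IMQ 1 or IMQ 2 (0.0588 to 0.104). Hoxc4 and Hoxd4 each lost it in 4 of the 6 cases (adjusted p up to 0.0773 and 0.160).

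The calls on the rises also depend on the scaling. The TMM factors were 1.10 to 1.20 in control and 0.79 to 0.92 in IMQ libraries, and without them the median log2 fold change of all genes moved from -0.06 to -0.51. Without scaling Hoxa5, Hoxa6 and Hoxa7 kept their direction and lost the call, Hoxa9 kept it, and 14 Hox genes were called lower. The 5 rises and 9 falls kept their direction without scaling.

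**Figure D2:**
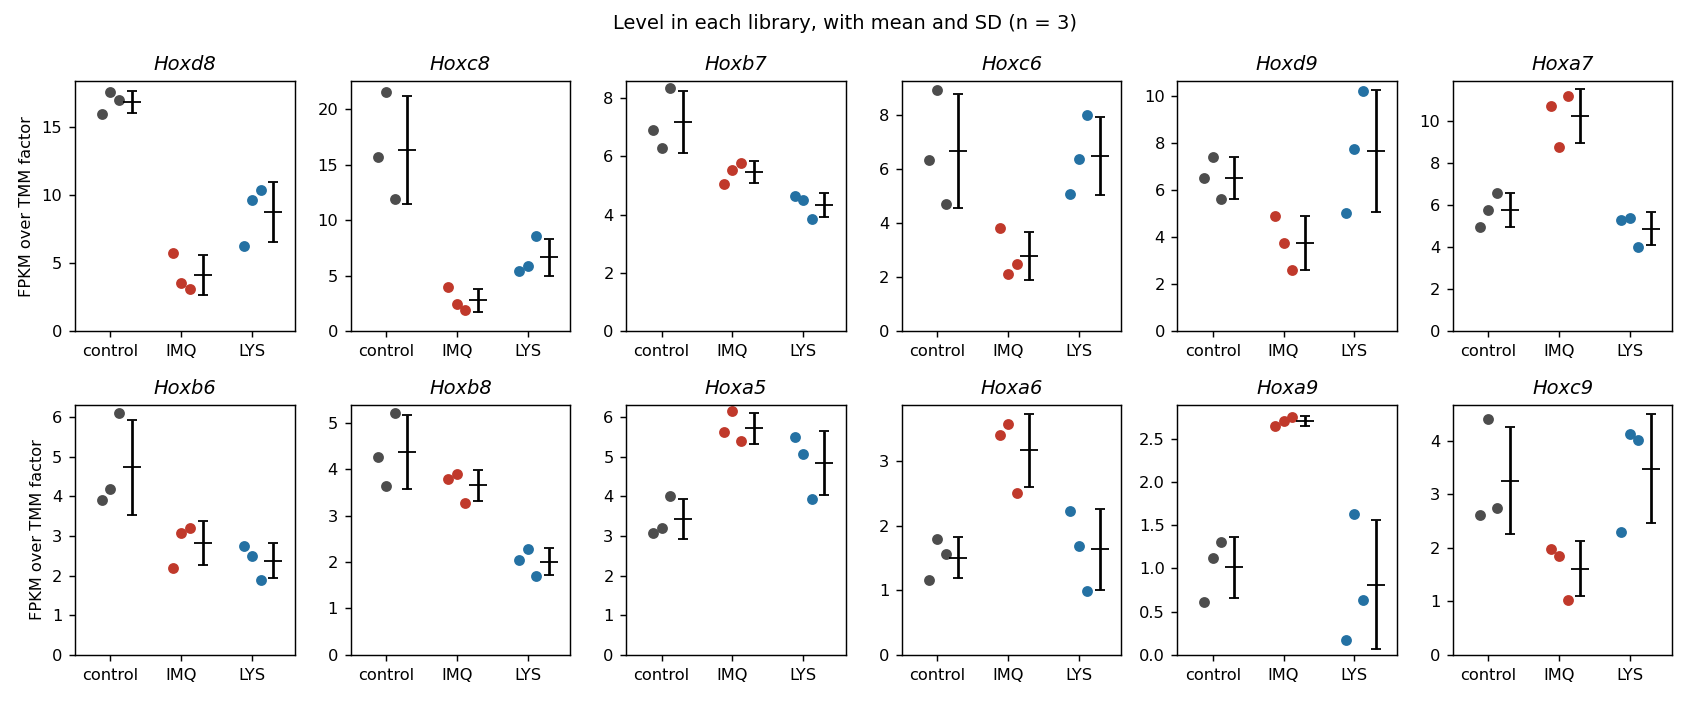
Level (FPKM over the TMM factor, linear axis from 0) in each of the 9 libraries for the 8 highest Hox genes of control skin and for Hoxa5, Hoxa6, Hoxa9 and Hoxc9. Points are libraries, and the bar gives the mean and SD of a group (n = 3). Hoxd8 and Hoxc8 are lowest in the IMQ libraries, where Hoxa7 (8.78 to 11.2) is above all its other libraries.

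The makeup of the code differed with the same groups. The summed Hox level was 67.4, 60.0 and 57.3 in the IMQ libraries, all below the control libraries. Hoxa took 41.3% ± 2.85 of it, against 15.8% ± 1.94 in control skin, and Hoxc fell to 17.6% ± 2.73 and Hoxd to 14.5% ± 3.46. The Hoxb share was 26.6% ± 3.50, within the spread of the control libraries. Paralog group 8 went from 40.5% ± 2.33 to 17.0% ± 2.83, and group 7 took 25.7% ± 3.49 against 14.1% ± 2.39. The central class as a whole took 68.9% ± 1.52, since Hoxa5, Hoxa6 and Hoxa7 are in it with Hoxc8 and Hoxd8. These are descriptions with no test, and the ranges of the Hoxa, Hoxc and Hoxd shares did not overlap between the groups.

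**Figure D3:**
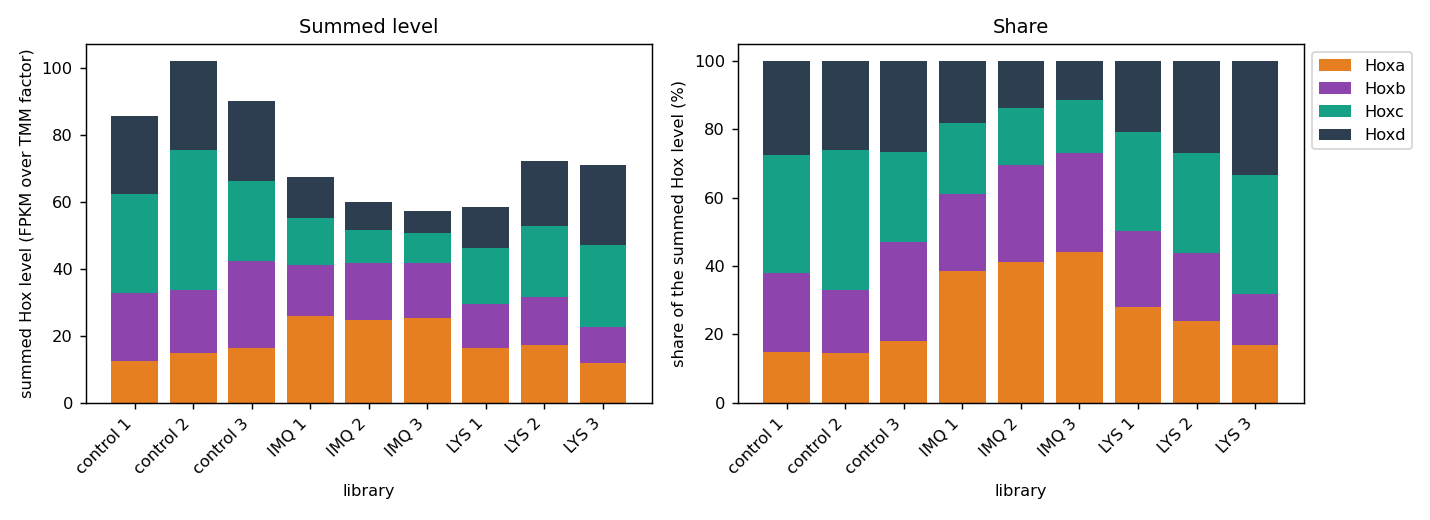
Summed level of the Hox genes of each cluster (left, FPKM over the TMM factor) and the share of each cluster in the sum of its library (right, percent), for the 9 libraries. Colours are clusters. The Hoxa band takes 38.5% to 44.2% in the IMQ libraries and 14.7% to 18.1% in the control libraries.

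Markers of skin cell types moved with these groups. Of 18 markers of dermal fibroblasts, 16 fell in the IMQ group, none rose and none was at 0, with a median log2 fold change of -2.09. Their summed level was 3634 to 4483 in control, 572 to 1602 in IMQ and 1494 to 2830 in LYS libraries. Of 10 markers of interfollicular keratinocytes all 10 rose, with none at 0, and their summed level was 1958 to 3291 in control, 14112 to 18082 in IMQ and 6671 to 11584 in LYS libraries. All 11 hair follicle markers measured fell, from a sum of 1139 to 2356 in control to 5.25 to 6.41 in IMQ and 2.11 to 5.69 in LYS libraries, where Krt25, Krt28, Krt71, Krt31, Krt33a, Krt35 and Dsg4 reached 0 in at least 1 library. Adipocyte markers fell in 9 of 9, endothelial markers in 9 of 10, skeletal muscle markers in 9 of 13 and melanocyte and Schwann markers in 6 of 8. Immune markers rose in 5 of 9 tested and fell in none. Of 6 smooth muscle and pericyte markers tested, 1 rose and 1 fell. For comparison, 24.1% of all genes tested rose and 26.9% fell. The part of these cell types in the Hox differences was not tested.

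Set beside the fibroblast markers, which themselves fell, most Hox genes had a higher relative level in IMQ than in control skin. The difference between the log2 level of a Hox gene and the mean log2 level of the 18 fibroblast markers (both with 0.1 added) was -2.43 ± 0.14 for Hoxd8 in control, -2.39 ± 0.07 in IMQ and -2.55 ± 0.13 in LYS libraries, so that relative to these markers Hoxd8 moved by less than the SD of the control libraries while its own level fell in the IMQ group. For Hoxc8 it was -2.51 ± 0.28, -2.96 ± 0.02 and -2.94 ± 0.20. For Hoxd9 it was higher in treated skin, with -3.79 ± 0.05, -2.52 ± 0.17 and -2.77 ± 0.07. For Hoxa7 it was -3.96 ± 0.29 in control, -1.06 ± 0.54 in IMQ and -3.36 ± 0.64 in LYS libraries, and for Hoxa9 -6.41 ± 0.55, -2.93 ± 0.55 and -6.17 ± 1.11. Over the 27 Hox genes tested, the mean of this difference was higher in IMQ than in control libraries in 26 and lower in 1, Hoxc8, and it was higher without overlap in 24, with a median of 1.84 for IMQ minus control. In LYS libraries it was above control in 20 and below in 7. The marker mean itself was 6.4 to 6.7 in control, 4.0 to 5.0 in IMQ and 5.2 to 6.1 in LYS libraries. Any gene that fell by less than the markers counts as higher by this measure, and the median log2 fold change of all genes in IMQ against control was -0.06. The share of all genes that were higher by it was not computed, so these counts do not set Hox genes apart from other genes. The genes printed here were chosen after their values were seen, and the values are a description over 3 libraries per group.

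**Figure D4:**
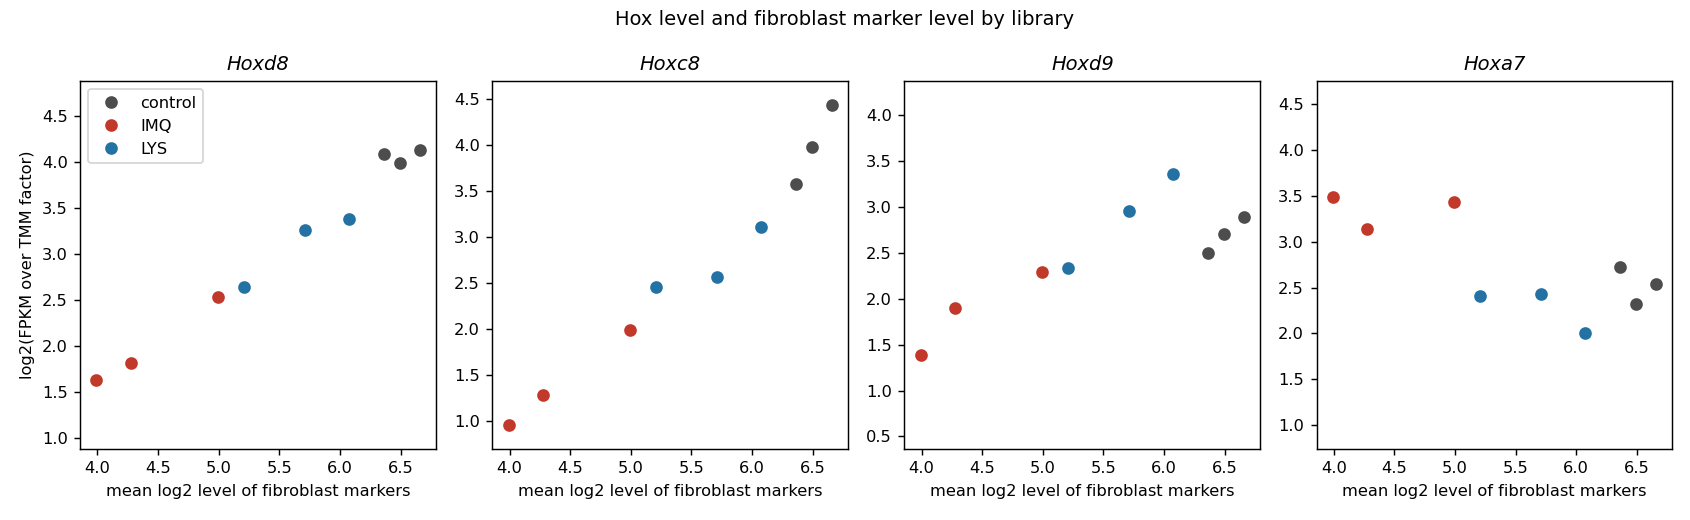
Log2 level of Hoxd8, Hoxc8, Hoxd9 and Hoxa7 (vertical axis, FPKM over the TMM factor) against the mean log2 level of the 18 fibroblast markers (horizontal axis) in the 9 libraries, coloured by group. All panels span the same height on the log2 scale. Hoxd8 and Hoxc8 are low where the markers are low (3.99 to 5.00 in IMQ libraries), and Hoxa7 is highest there.

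The second comparison asked what LYS changed in IMQ-treated skin. Of the Hox genes 25 were tested and 0 passed in edgeR, as did 0.0% of all 15460 genes. At an unadjusted p under 0.05 there were 9 Hox genes, where 35.2% of all genes reached it, and the smallest edgeR adjusted p of a Hox gene was 0.0591. The IMQ and LYS groups did not overlap in 6 Hox genes that were higher and 6 that were lower in LYS libraries, against 38.9% of all genes.

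The 9 genes at an unadjusted p under 0.05 are given by library. This comparison shares its IMQ libraries with the one above, so that the directions in the 2 comparisons are not independent. Hoxc8 had levels of 5.47, 5.89 and 8.60 in LYS libraries, above each IMQ value (log2 fold change 1.33, SE 0.32, edgeR adjusted p 0.0606). Hoxc6 had 5.10, 6.38 and 8.00, which reached the control range (1.28, SE 0.30, adjusted p 0.0591).

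Hoxd8 had 6.26, 9.62 and 10.4 (log2 fold change 1.15, SE 0.31), Hoxc9 had 2.30, 4.12 and 4.01 (1.18, SE 0.35), and Hoxd9 had 5.03, 7.75 and 10.2 (1.10, SE 0.34), with edgeR adjusted p of 0.0647, 0.0753 and 0.0781. LYS 1 was the lowest LYS library in all 5 of these Hoxc and Hoxd genes. On the other side, Hoxa7 had 5.29, 5.38 and 4.01, all under its IMQ values of 8.78 to 11.2 (-1.01, SE 0.17, adjusted p 0.0591). Hoxb8 had 2.04, 2.27 and 1.70 (-0.80, SE 0.20, adjusted p 0.0610) and Hoxa9 had 0.175, 1.63 and 0.637 (-1.65, SE 0.64, adjusted p 0.121). Hoxa6 had 2.24, 1.68 and 0.984 (-0.90, SE 0.37, adjusted p 0.131).

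Other tools called some of these genes. DESeq2 called 5 Hox genes higher (Hoxc8, Hoxc6, Hoxd8, Hoxc9 and Hoxd9) and 3 lower (Hoxa7, Hoxa9 and Hoxb8), where it called 21.1% of all genes. When edgeR was fitted to the 9 libraries together, the same 5 were higher and Hoxa7 and Hoxb8 lower, against 18.5% of all genes. Without LYS 1 the edgeR test called the same 5 and the same 2, against 26.8% of all genes, and limma called none. Without LYS 1 the share of Hox genes called was thus near that of all genes.

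In LYS libraries the summed Hox level was 58.5, 72.2 and 70.9. The Hoxa share was 23.0% ± 5.65, the Hoxb share 19.0% ± 3.62, the Hoxc share 31.0% ± 3.24 and the Hoxd share 27.0% ± 6.23. The Hoxa share did not overlap with the IMQ libraries and was from 16.9% to 28.1%, which overlapped the control range. All 18 fibroblast markers had a positive log2 fold change in LYS against IMQ libraries and 8 of the 10 keratinocyte markers a negative value, with 0 calls in either list, and their part in the Hox values was not tested. The level of Hoxa7 in LYS skin was within or below its control range in each library. Hoxa5, which also rose in the IMQ group, had levels of 5.502, 5.057 and 3.940 in LYS libraries. Its level was above its control range in LYS 1 and LYS 2 and within that range in LYS 3. The log2 fold change of Hoxa5 was -0.181 in LYS against IMQ and 0.503 in LYS against control skin, and neither was called. The keratinocyte sum was above control in each LYS library, with 8 of its 10 markers called higher than control and Trp63 and Dsg1a not called. How the Hoxa7 and Hoxa5 levels relate to this sum was not tested.

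The last comparison set LYS skin against control skin. Of 27 Hox genes tested 0 were higher and 6 lower in edgeR, where 28.0% of all genes passed, 15.1% as higher and 12.9% as lower. Without overlap were 1 Hox gene that was higher and 8 that were lower, against 50.3% of all genes. Of the 6 that fell, 4 were Hoxb genes. Hoxb3 had levels of 0.230, 0.292 and 0.216 (log2 fold change -1.64, SE 0.30, edgeR adjusted p 0.00684). It shares 52.9% of its exon bases with antisense Hoxb3os, so its reads cannot be fully assigned while the strand setting is not known.

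Hoxb8 was lower in LYS than in control skin by a log2 fold change of -1.12 (SE 0.22, edgeR adjusted p 0.00817), and Hoxb6, with 2.74, 2.50 and 1.90, by -0.99 (SE 0.25, adjusted p 0.0230). Hoxb7, with 4.65, 4.50 and 3.86, was lower by -0.72 (SE 0.19, adjusted p 0.0251). The summed Hoxb level was 10.6 to 14.3 in LYS libraries, 15.2 to 17.0 in IMQ and 18.9 to 26.0 in control libraries, with no overlap between any pair of groups. On deposited FPKM without TMM factors the sums were 11.7 to 15.1 in LYS and 13.3 to 13.9 in IMQ libraries, which overlapped. Hoxc8 (-1.30, SE 0.26, adjusted p 0.00953) and Hoxd8 (-0.94, SE 0.19, adjusted p 0.0102) were still below control. No Hoxa gene passed in this comparison. Hoxb7 lost the edgeR call without control 1, control 3, LYS 2 or LYS 3 (adjusted p 0.0557 to 0.0831) and Hoxb6 without control 3 or LYS 2 (0.0729 and 0.0686).

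Several posterior genes differed widely between the LYS libraries. Hoxc10, a gene of the lumbar region and hindlimb, had 0, 50 and 1 counts in LYS libraries, against 24, 51 and 39 in control and 49, 21 and 16 in IMQ libraries. Hoxa9 had 14, 161 and 62 counts, Hoxa10 had 7, 57 and 24 and Hoxb9 had 21, 92 and 40, each highest in LYS 2. Hoxd9 and Hoxd10 did not follow, with 154, 293 and 380 and with 21, 57 and 85 counts, each highest in LYS 3. Without LYS 2, the log2 fold change of Hoxc10 against control was -5.57 and passed the edgeR test (adjusted p 0.0107), where it was -0.87 with all libraries. Without LYS 1, Hoxd10 was called higher than control.

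**Figure D5:**
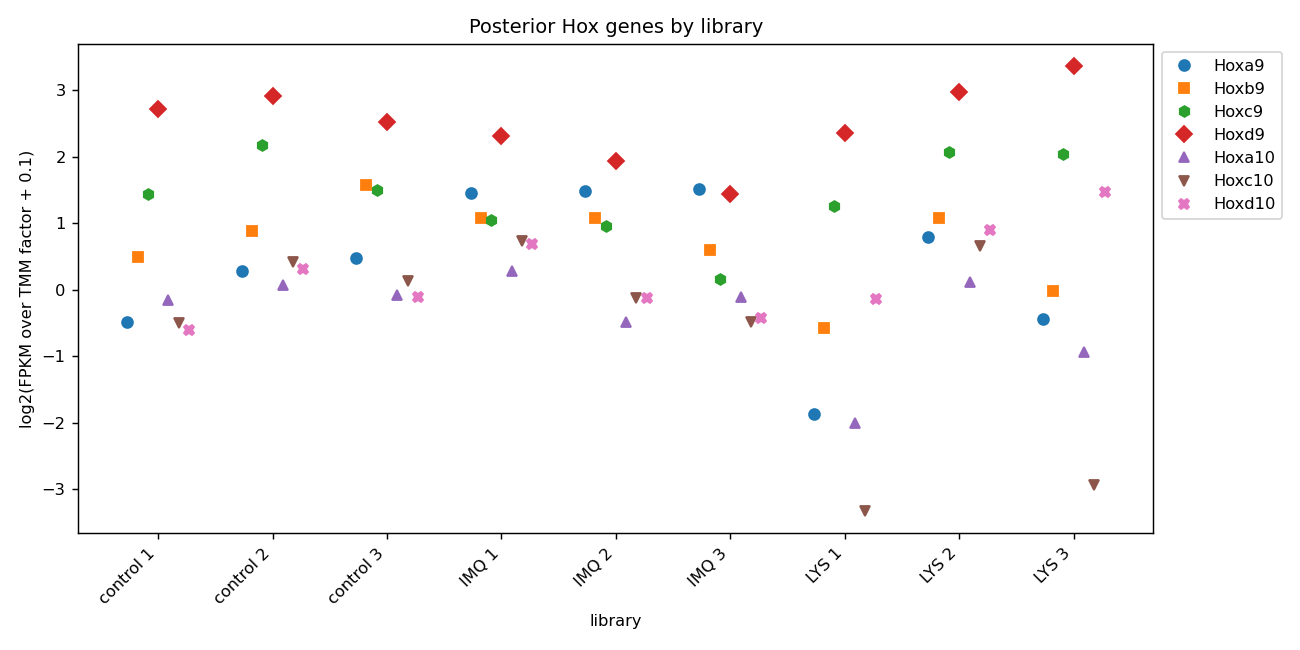
Log2 level (FPKM over the TMM factor, with 0.1 added) of the 7 posterior Hox genes with a mean control level over 0.5, in each of the 9 libraries. Symbols are genes, set side by side within a library. Hoxc10, Hoxa9, Hoxa10 and Hoxb9 are far lower in LYS 1 and LYS 3 than in LYS 2, where Hoxc10 has 50 counts.

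The order of the code was close between groups despite these differences. Over the 31 Hox genes above the floor in control skin, Spearman's rho between group means was 0.92 for control and IMQ, 0.95 for control and LYS and 0.92 for IMQ and LYS, given as a description, since the genes share libraries and their levels span a wide range. The highest gene was Hoxd8 in control and LYS skin and Hoxa7 in IMQ skin.

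Other genes of the pathway were taken from lists. Over all genes 24.1% rose and 26.9% fell in the IMQ group, the background of the counts here. Of 9 TALE cofactor genes none rose and 2 fell. The share that fell was near the 26.9% of all genes, and the share that rose was below the 24.1%. The 2 were Meis3 (log2 fold change -1.35, edgeR adjusted p 0.00761) and Pknox2 (-0.94, adjusted p 0.0185). Of 16 other transcription factors of position and dermal identity that were tested, 12 fell and 1 rose, with a median of -1.76. The largest falls were Alx4 (-4.75), Msx1 (-3.68), Lmx1b (-3.37) and Prrx2 (-1.92). Lmx1b had at most 35 counts in a control library and at most 3 in an IMQ library, which is at the floor, so the size of its fall is uncertain. Pitx1, known as a hindlimb factor, went the other way, from 0.327, 0.226 and 0.330 in control to 10.9, 24.5 and 11.3 in IMQ libraries and 8.46, 5.85 and 4.45 in LYS libraries (log2 fold change 5.70 in IMQ against control, edgeR adjusted p 2.9e-05). In LYS against control skin Pitx1 was again higher (4.40) and 4 genes of the list lower, among them Alx4 (-4.14) and Msx1 (-2.51). Noncoding transcripts of the clusters fell in 3 of 3 tested in the IMQ group, Hoxd3os1 (-1.96), Hoxb3os (-1.34) and Hoxb5os (-1.02), and all 3 share exon bases with Hox genes of the opposite strand.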

How the data were processed

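RNA-seq of 9 back skin libraries was used. The authors deposited raw counts per gene and the corresponding FPKM for 29205 genes. The submitters' processing notes name HISAT2, HTSeq 0.13.5 and GRCm38, and the strand setting is not given in the sources used here. The implied FPKM lengths equalled GENCODE M21 exon lengths for all 36 Hox genes. From the deposited counts, edgeR 4.0.16 (R 4.3.3) was run with TMM factors, filterByExpr and the quasi-likelihood test on the libraries compared, with p-values adjusted over all genes tested. Standard errors were derived from the F statistic. Levels are the deposited FPKM over TMM factors from all 9 libraries. DESeq2 1.42.0, limma 3.58.1 on log2(FPKM + 1), other scalings, filters, fits and libraries left out were alternatives. The scripts were tested on simulated data. Libraries of the same group were not repeats of each other, since their counts differed far beyond sampling (chi-square over its degrees of freedom 16.9 to 100), and p-values measure only the spread between these libraries. No batch is named in the labels. The members, gene lists and alternatives were chosen with earlier results of these data known. Named with values were all Hox genes above the floor in control skin, the 8 highest by library, the 5 largest rises and falls among the calls of each comparison, and in other lists up to 4 called genes per direction and those opposite to their list. The values of 2 genes are not reported here, and they were kept in the counts and sums. Promoters are from RefSeq (GRCm38.p6). Figures were drawn with matplotlib 3.10.9.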

Additional observations from a re-analysis of the deposited data

How the results depend on the processing

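In IMQ against control, 5 Hox genes were called higher and 9 lower. The alternatives gave 2 higher and 14 lower without scaling beyond library totals, 1 higher with limma on log2(FPKM + 1), and 3 higher at an absolute log2 fold change over 1, the last by construction. Leaving out a library gave 3 to 5 higher and 5 to 8 lower, the lowest counts without control 1 and without IMQ 2. In LYS against IMQ, 0 were called either way, while DESeq2 gave 5 higher and 3 lower, no filter on low counts 5 and 1, and all 9 libraries in a single fit 5 and 2. Leaving out a library gave 0 to 5 higher and 0 to 2 lower, with calls only without IMQ 1 (3 and 1) and without LYS 1 (5 and 2). In LYS against control, 0 were higher and 6 lower, with 3 lower at an absolute log2 fold change over 1, again by construction, and 0 to 1 higher and 4 to 6 lower with a library left out. The cause of the other changes was not tested. Of the fold changes of genes called in any setting, none changed sign in any alternative run.

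The replicate numbers gave no sign of pairing. Correlations of the deviations were -0.363 to 0.138 for same-numbered libraries and -0.222 to 0.367 for libraries with different numbers. With 3 libraries per group this cannot exclude a pairing. With a replicate block, 5 Hox genes were higher and 7 lower in IMQ against control, 0 in LYS against IMQ, and 4 lower in LYS against control.

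Without Hoxd8, the most abundant gene, the shares of the sum were 19.4% Hoxa, 28.9% Hoxb, 41.5% Hoxc and 10.3% Hoxd in control skin, with 44.2% Hoxa and 8.42% Hoxd in IMQ skin and 35.7% Hoxc and 16.3% Hoxd in LYS skin. The classes were then 10.1% anterior, 69.5% central and 20.4% posterior in control skin, and the central class 66.7% in IMQ and 60.4% in LYS skin. Hoxc11, Hoxd1, Hoxb1 and Hoxd3, with at most 7 counts in any library, were left out by the filter on low counts, and without it none was called in any comparison.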

Other observations

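Genes of the complexes that hold Hox genes silent or active were mixed in direction. Of 19 Polycomb genes 3 rose and 5 fell after IMQ, and of all genes 51.0% were called, a share that the 8 of 19 do not exceed. Cbx2 (log2 fold change 0.94, edgeR adjusted p 0.00109) and Jarid2 (0.76) were among those that rose. Phf19 (-1.25), Bmi1 (-1.09), Rnf2 (-0.68) and Ezh2 (-0.66), the catalytic subunit of the complex that methylates histone H3, were among those that fell. Cbx2 had levels of 4.38, 4.03 and 5.42 in control, 7.97, 9.30 and 9.51 in IMQ and 5.36, 3.93 and 3.38 in LYS libraries, so that its IMQ libraries lay above all others. Of 7 Trithorax genes 3 rose and none fell. This is no larger a share than the 51.0% of all genes called in either direction. It is a larger share than the 24.1% of all genes that rose, in a list of only 7. The 3 were Kmt2d (1.20), a histone methyltransferase, and Kdm6b (0.89) and Kdm6a (0.60), demethylases that act against the Polycomb mark. Kmt2d and Kdm6b were also called higher in LYS than in control skin (1.25 and 0.91). None of these genes passed the edgeR test in LYS against IMQ skin.

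Of 43 protein-coding genes within 500 kb of the outermost Hox genes 35 were tested, and in the IMQ group 10 rose and 7 fell, near the 51.0% called over all genes, with a median log2 fold change of 0.05. Next to the Hoxa cluster 0 of 3 tested genes passed, with a median of 0.16. Among them Skap2 missed only the fold change threshold (log2 fold change 0.52, edgeR adjusted p 0.00709). Next to the Hoxd cluster 0 of 2 passed. Beside the Hoxb cluster 3 of 11 rose and 1 fell, and beside the Hoxc cluster 7 of 19 rose and 6 fell.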
